A study of Mus musculus with 48 samples.

Results

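Microglia genes are described here in the hippocampal Cornus Ammonis (CA) of mice that lack the cannabinoid receptor CB1 in a class of neurons. The members are the rows of the gene count table for Cx3cr1, Csf1r, P2ry12, Tmem119, Aif1, C1qa, C1qb, C1qc, Ly86 and Ncf4, which are 10 of 24421 genes. The table holds 48 libraries, each from 1 male mouse labelled as 8 weeks old. Mice of the strain nex-cre x CB1f/f carry a floxed CB1 gene that Cre recombinase removes under the regulatory elements of nex1 in glutamatergic neurons (Glu-CB1-KO). In the strain dlx5/6-cre x CB1f/f the removal runs under the elements of dlx5/6, in GABAergic neurons (GABA-CB1-KO). CB1-WT littermates of each line served as controls, so the deletion concerns neurons and neither line was built to remove CB1 from microglia. Mice were taken either in the basal state (home cage) or after exposure to an open field arena for 5 min, with the tissue isolated an hour after the exposure per the study's methods. This gave 5 Glu-CB1-WT and 7 Glu-CB1-KO mice in each of the 2 states, 6 WT and 6 KO mice of the GABA-CB1 line in the basal state, and 7 WT and 5 KO mice of that line after open field exposure. The animals had been picked for sequencing by the purity of the dissected tissue, by behavior and by neuronal activity, and the dentate gyrus had been removed.

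Microglia are the resident macrophages of the brain. They survey the tissue with motile processes, clear debris and take part in the removal of synapses that are tagged by complement. They are kept alive by signals through the receptor of colony-stimulating factor 1, and they read neuronal signals such as fractalkine and extracellular nucleotides. Among the members, 3 are receptors: Cx3cr1 binds fractalkine, Csf1r binds CSF1 and IL-34, and P2ry12 senses ADP and steers processes towards sites of injury. Tmem119 is a surface marker of microglia, and Aif1 encodes the actin-binding protein known as Iba1. C1qa, C1qb and C1qc encode the chains of C1q, the recognition part of the first complement component. Ly86 encodes MD-1, the partner of the Toll-like receptor homologue Cd180, and Ncf4 encodes the p40phox subunit of the phagocyte NADPH oxidase.

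The C1q genes lie side by side on the minus strand of chromosome 4 (mm10), at chr4:136880145-136886177 for C1qb, chr4:136889802-136892914 for C1qc and chr4:136895916-136898844 for C1qa. There are 3624 bases between C1qb and C1qc and 3001 bases between C1qc and C1qa. Their levels moved together across the libraries, as described further on, so the promoters of C1qb and C1qc are shown. Each runs from 250 bases before the RefSeq transcript start to 50 bases from it, 5′ to 3′, in the build GRCm38.p6, at chr4:136886151-136886450 for C1qb and chr4:136892865-136893164 for C1qc on the minus strand. Capitals mark matches to the letters searched on both strands.
C1qb: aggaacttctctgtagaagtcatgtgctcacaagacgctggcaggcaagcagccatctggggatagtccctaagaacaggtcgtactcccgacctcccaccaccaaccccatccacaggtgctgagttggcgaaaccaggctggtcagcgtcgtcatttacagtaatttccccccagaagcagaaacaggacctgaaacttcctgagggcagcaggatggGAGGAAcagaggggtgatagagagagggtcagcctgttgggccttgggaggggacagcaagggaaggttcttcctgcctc
C1qc: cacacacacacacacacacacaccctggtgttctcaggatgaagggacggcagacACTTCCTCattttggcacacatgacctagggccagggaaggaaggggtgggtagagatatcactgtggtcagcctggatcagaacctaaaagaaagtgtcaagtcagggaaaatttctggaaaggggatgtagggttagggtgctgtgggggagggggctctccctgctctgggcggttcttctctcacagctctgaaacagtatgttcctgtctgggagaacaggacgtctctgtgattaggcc

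The letters searched were GAGGAAGT, a form of the site of the myeloid factor Spi1 (PU.1), its core GAGGAA, which lies within it, and TATAAA. The C1qc promoter holds GAGGAAGT on the opposite strand, where it reads ACTTCCTC, from base -195 to base -188 with the transcript start as base 0. The C1qb promoter holds GAGGAA from base -30 to base -25. Of the 6 members with an entry in the RefSeq promoter table, Aif1 is the other one that holds GAGGAA, and neither Cx3cr1, P2ry12 nor Ly86 holds any of the letters searched. GAGGAAGT occurs in 3.2% of 32851 promoters of this length, GAGGAA in 28.3% and TATAAA in 13.6%. A match describes the letters and is not evidence of a site in use.

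Between 25892654 and 34091080 reads were counted per library, and between 17621 and 17967 genes had a count. Cnr1, the gene for CB1, was lower in the KO mice of every comparison within a line and state, with log2 fold changes between -1.45 and -0.72, each called by edgeR. The choroid plexus gene Ttr separated 4 libraries from the others, with 3846 CPM (the count scaled to library size) in GABA-CB1-KO open field replicate 4, 1388 CPM in GABA-CB1-WT basal replicate 3, 567 CPM in Glu-CB1-KO basal replicate 6 and 233 CPM in Glu-CB1-KO open field replicate 4. CPM values were normalized by the trimmed mean of M-values (TMM) over all libraries. The animal numbers in the labels fall into a low and a high range in each line, and the within-range values are given below where a member is named. Beside the members, 30 other genes of microglia were followed, which were all counted in every library and summed to between 574 and 703 CPM. Their detection does not test the label of microglia, since the share of all genes counted in every library was not computed. Among the listed markers of perivascular macrophages, Stab1 had a mean of 14.28 CPM and was counted in all 48 libraries. The others had a mean of 1.81 CPM (Mrc1) or less, among them 0.536 CPM for Lyve1 and 0.243 CPM for Pf4. Among genes of blood cells and monocytes, Alas2 had a mean of 1.44 CPM and was counted in all 48 libraries. Ccr2 had a mean of 0.174 CPM and Cd3e of 0.0295 CPM. Hba-a1, Hba-a2, Hbb-bs and Hbb-bt were listed at 0 in all libraries, and what these zeros reflect was not tested.

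The members were at moderate levels, and the group means of a member differed little. Per kilobase of exon, C1qb was the most abundant at 33.9 CPM per kb, at the 90.0th percentile of the genes with a count. It was followed by C1qa at 30.8, Csf1r at 24.3, C1qc at 24.2, P2ry12 at 20.6 and Cx3cr1 at 14.3 CPM per kb. Ly86 had 9.41, Tmem119 9.22, Aif1 4.89 and Ncf4 0.419 CPM per kb. Ncf4, with between 5 and 31 reads per library, was at the 32.4th percentile and is the member whose values are least precise. In bulk tissue a lower level can mean fewer microglia or less RNA per cell, and these cannot be told apart.

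Over the 8 groups, the highest group mean was between 1.07 times (Csf1r) and 1.25 times (Ly86) the lowest for 9 members, and 2.12 times for Ncf4. For Cx3cr1 the group means ran from 51.0 ± 3.51 CPM (SD, n = 7) in Glu-CB1-KO after open field exposure to 56.0 ± 4.21 CPM (SD, n = 7) in Glu-CB1-KO in the basal state. Csf1r ran from 90.2 ± 3.93 CPM (SD, n = 7) in GABA-CB1-WT to 96.9 ± 3.64 CPM (SD, n = 5) in GABA-CB1-KO, both after open field exposure. P2ry12 ran from 44.4 ± 3.80 CPM (SD, n = 5) in GABA-CB1-KO after open field exposure to 51.2 ± 3.59 CPM (SD, n = 7) in Glu-CB1-KO in the basal state. Basal Glu-CB1-KO thus had the highest group mean of both Cx3cr1 and P2ry12. Tmem119 ran from 17.9 ± 1.39 CPM (SD, n = 5) in basal Glu-CB1-WT to 21.5 ± 1.82 CPM (SD, n = 5) in GABA-CB1-KO after open field exposure. Aif1 ran from 3.91 ± 0.495 CPM (SD, n = 5) in GABA-CB1-KO after open field exposure to 4.71 ± 0.540 CPM (SD, n = 6) in basal GABA-CB1-WT. When the 8 group means of each member were put in order, 3 of 70 neighboring pairs were more than 1 SD of the paired groups apart. These were the step from Glu-CB1-KO after open field exposure to basal GABA-CB1-KO for C1qb (1.17 SD), the step below Glu-CB1-WT after open field exposure for Ly86 (1.20 SD) and the step down to basal Glu-CB1-WT for Ncf4 (1.50 SD). All other neighbors in the order lay within 1 SD of each other.

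**Figure D1:**
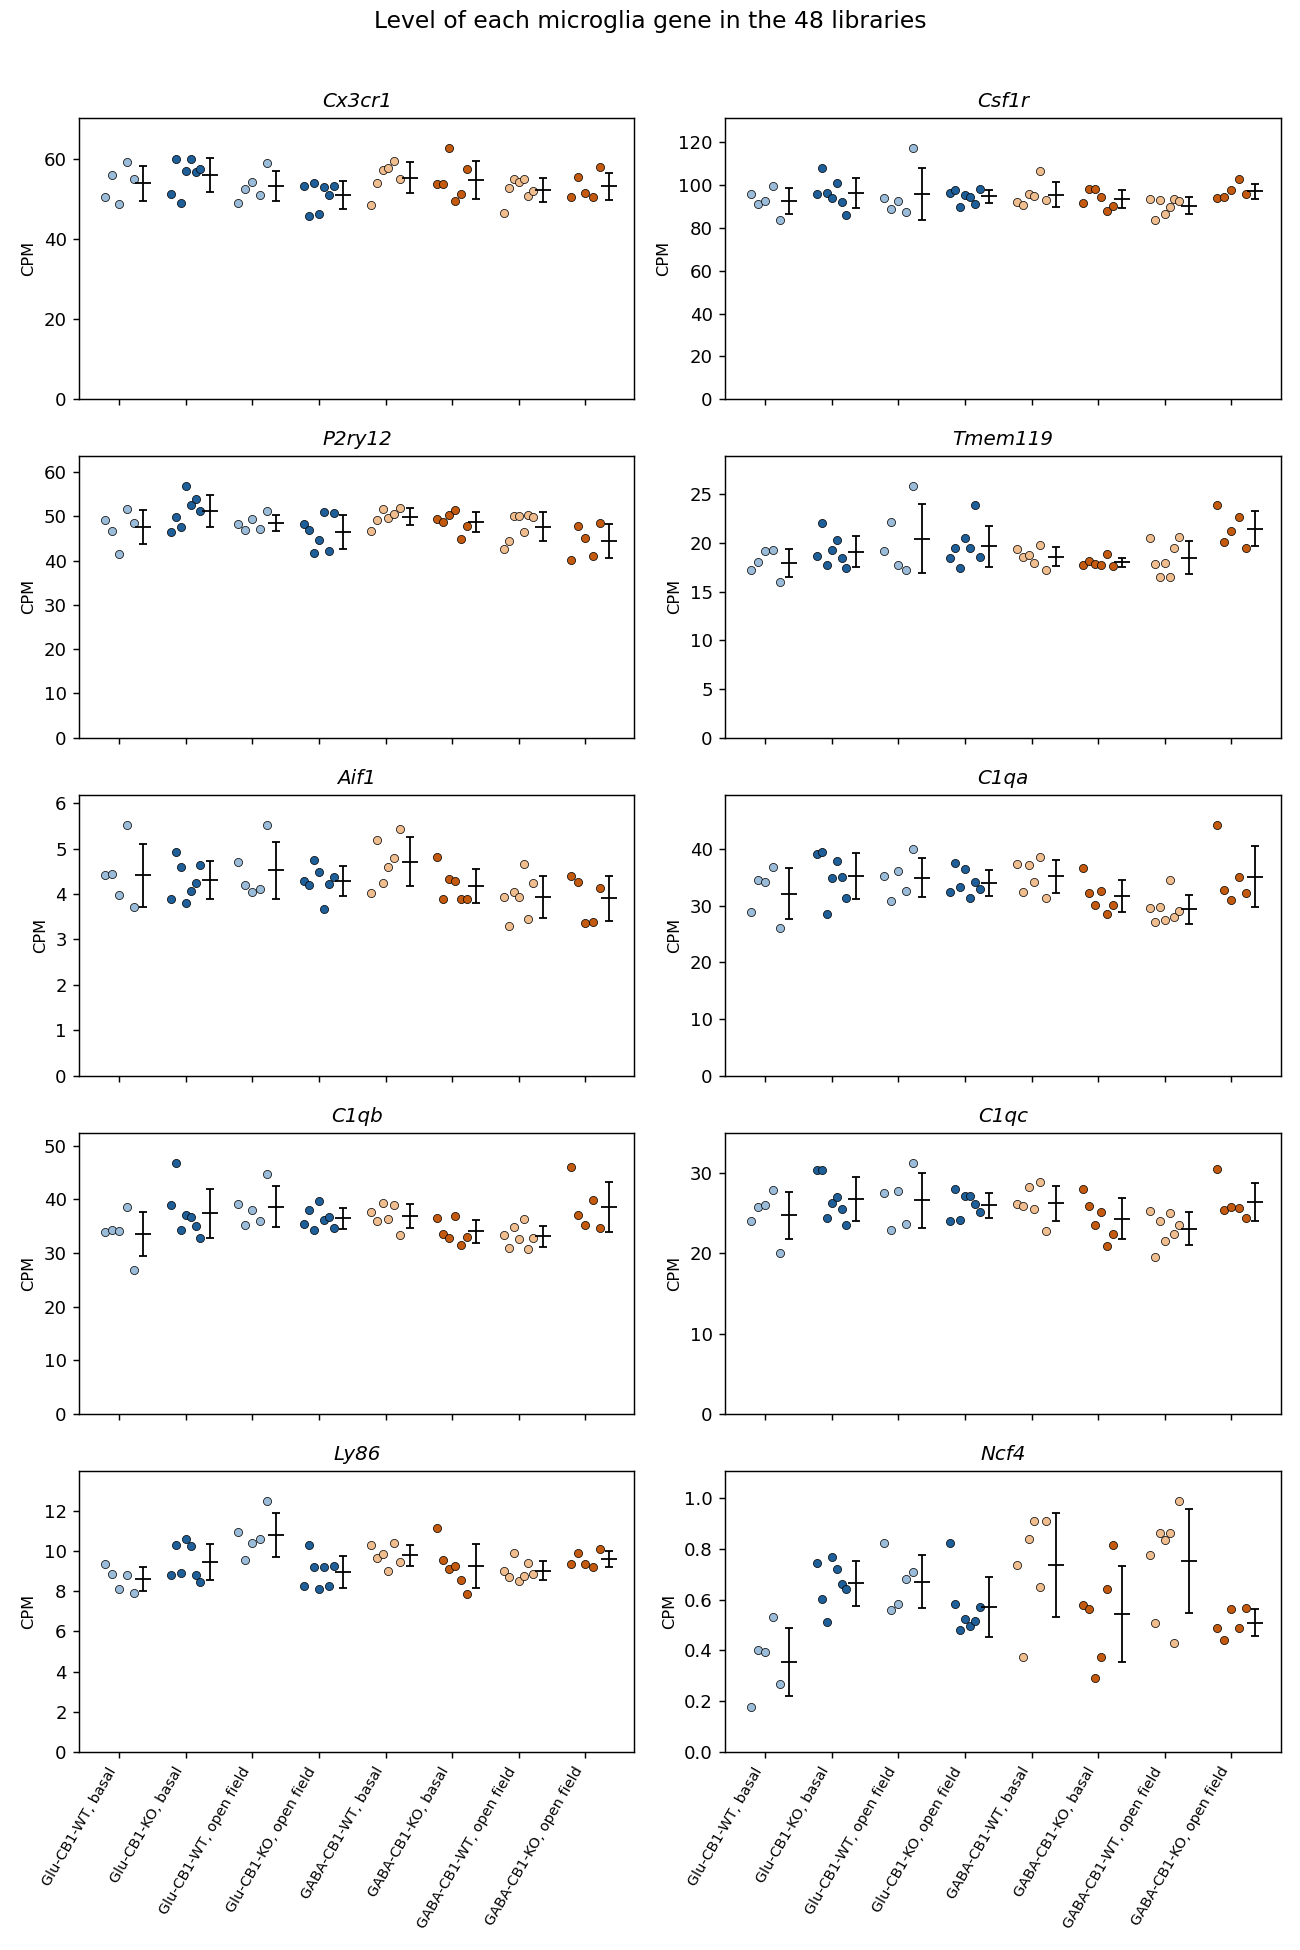
Level of each of the 10 microglia genes (CPM, linear axis from 0) in the 48 libraries, by group. Points are mice, the horizontal mark is the group mean and the bar its SD. The groups overlap for nearly every gene, while basal Glu-CB1-WT stands lowest for Ncf4 with a mean of 0.355 CPM and Glu-CB1-WT after open field exposure stands highest for Ly86 with a mean of 10.8 CPM.

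The first question was whether loss of CB1 from glutamatergic neurons altered microglia genes. No member was a differentially expressed gene (DEG, Benjamini-Hochberg adjusted p-value under 0.05) between Glu-CB1-KO and Glu-CB1-WT in the basal state by edgeR's quasi-likelihood test, where 0.0198% of all genes were DEGs. The log2 fold changes had a median of 0.11 and were above 0 for 9 of 10 members, with only Aif1 below. At an unadjusted p-value under 0.05 there was 1 member by edgeR, beside 3.57% of all genes, and 1 by DESeq2, which also called 0. That member was Ncf4, which had 0.180, 0.400, 0.396, 0.531 and 0.268 CPM in the Glu-CB1-WT mice and a lowest, median and highest value of 0.514, 0.662 and 0.768 CPM in the 7 Glu-CB1-KO mice. Of the KO mice 6 lay above every WT mouse, and the groups overlapped by the remaining one. The log2 fold change was 0.87 ± 0.22 (SE) with an adjusted p of 0.841 by edgeR, on between 5 and 24 reads per library. Within the low and the high range of animal numbers the log2 ratio of the Ncf4 means was 1.22 (2 WT and 5 KO mice) and 0.71 (3 WT and 2 KO mice).

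After open field exposure no member was a DEG between Glu-CB1-KO and Glu-CB1-WT by edgeR, where 0.272% of all genes were. All 10 log2 fold changes were below 0, with a median of -0.06. There was 1 member at an unadjusted p under 0.05 by edgeR, beside 6.97% of all genes, and 1 by DESeq2, which called 0. That member was Ly86, which had 10.9, 9.53, 10.4, 10.6 and 12.5 CPM in the Glu-CB1-WT mice. The 7 Glu-CB1-KO mice had a lowest, median and highest Ly86 level of 8.12, 9.19 and 10.3 CPM, and 6 of them lay below every WT mouse. The log2 fold change of Ly86 was -0.27 ± 0.08 (SE) with an adjusted p of 0.265 by edgeR. Its log2 ratio of means was -0.30 in the low range of animal numbers (3 WT and 6 KO mice) and -0.18 in the high range (2 WT and 1 KO mice). The C1q genes had log2 fold changes of -0.04 (C1qa), -0.08 (C1qb) and -0.04 (C1qc) here, against 0.13, 0.15 and 0.11 in the basal state.

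The second question was the same for GABAergic neurons. In the basal state no member was a DEG between GABA-CB1-KO and GABA-CB1-WT by edgeR, where 0.245% of all genes were. All 10 log2 fold changes were below 0 with a median of -0.10, and 2 members had an unadjusted p under 0.05 by edgeR, beside 8.16% of all genes, and 2 by DESeq2, which called 0. The smallest p was that of C1qb, whose lowest, median and highest levels were 33.4, 36.9 and 39.3 CPM in the 6 WT mice and 31.5, 33.2 and 36.9 CPM in the 6 KO mice. The groups overlapped, with 3 KO mice below every WT mouse. The log2 fold change of C1qb was -0.12 ± 0.05 (SE) with an adjusted p of 0.570 by edgeR, and its log2 ratio of means was -0.12 and -0.06 in the low and high ranges of animal numbers.

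After open field exposure the sign of most members was the opposite. No member was a DEG between GABA-CB1-KO and GABA-CB1-WT by edgeR, where 0.0199% of all genes were. At an unadjusted p under 0.05, however, there were 6 members by edgeR and 6 by DESeq2, which called 0, beside 13.2% of all genes at that level by edgeR. Of the 10 log2 fold changes 7 were above 0, and the median was 0.10. The 5 GABA-CB1-KO mice had 44.3, 32.7, 31.1, 35.1 and 32.3 CPM of C1qa, and the 7 GABA-CB1-WT mice had a lowest, median and highest value of 27.2, 29.04 and 34.6 CPM. For C1qb the KO mice had 45.98, 37.1, 35.2, 39.9 and 34.6 CPM and the WT mice 30.8, 32.8 and 36.3 CPM. KO replicate 1 was the highest mouse for all 3 C1q genes, and the groups overlapped for C1qa, C1qb and C1qc. The log2 fold change was 0.26 ± 0.08 (SE) for C1qa (adjusted p = 0.262 by edgeR) and 0.22 ± 0.07 (SE) for C1qb (adjusted p = 0.248 by edgeR). Without KO replicate 1 the value of C1qa was 0.16 (adjusted p = 0.324 by edgeR). Of the 8 groups, GABA-CB1-WT after exposure had the lowest mean of C1qa (29.34 CPM), C1qb (33.11 CPM) and C1qc (23.05 CPM). The GABA-CB1-KO means after exposure were 35.10, 38.56 and 26.37 CPM, and none was the highest. The highest means of C1qa (35.20 CPM) and C1qc (26.77 CPM) were in basal Glu-CB1-KO. That of C1qb (38.61 CPM) was in Glu-CB1-WT after exposure.

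Tmem119 had 23.9, 20.0, 21.3, 22.7 and 19.5 CPM in the same KO mice and a lowest, median and highest value of 16.5, 17.99 and 20.7 CPM in the WT mice, with a log2 fold change of 0.22 ± 0.07 (SE) and an adjusted p of 0.267 by edgeR. Csf1r was the only member of the 10 whose groups did not overlap here or in the other 3 comparisons of KO with WT within a line and state. Its KO mice had 94.0, 94.2, 97.7, 103 and 95.7 CPM, and its WT mice reached at most 93.6 CPM. Named after its values were seen, it was 1 of 10 members here, beside 0.987% of all genes whose groups did not overlap in either direction, and in the other 3 comparisons it was 0 of 10 beside 0.198% (Glu-CB1, basal), 0.743% (Glu-CB1, open field) and 0.709% (GABA-CB1, basal). The distance between the highest WT and the lowest KO mouse was small beside the spread of 83.4 to 93.6 CPM among the WT mice, and the log2 fold change of Csf1r was 0.10. P2ry12 and Ncf4 had log2 fold changes of -0.10 ± 0.06 (SE, adjusted p = 0.468 by edgeR) and -0.56 ± 0.21 (SE, adjusted p = 0.301 by edgeR) in this comparison. The signs of the members thus differed, while differences between members were not tested.

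A single mouse, GABA-CB1-KO replicate 4, stood apart in this comparison for markers of the choroid plexus, with 3846 CPM of Ttr where the other 4 KO mice had 26.9 to 51.8 CPM and the WT mice 15.7 to 51.2 CPM. All 10 choroid plexus genes listed had a log2 fold change above 0 between GABA-CB1-KO and GABA-CB1-WT after open field exposure, with a median of 2.19 and 8 at an unadjusted p under 0.05, and 0 were called by edgeR. Their summed level ran from 237 to 5398 CPM with a median of 291 CPM in the KO mice, and from 241 to 276 CPM with a median of 256 CPM in the WT mice. Each of the 10 had a mean over 0.1 CPM, and Ttr is the defining one. Without the libraries of highest Ttr, a choice made after seeing the data that left out KO replicate 4 here, the log2 fold change was 0.26 for C1qa, 0.21 for C1qb and 0.19 for Tmem119. In the low and the high range of animal numbers (4 WT and 3 KO, and 3 WT and 2 KO mice) the log2 ratio of means was 0.26 and 0.25 for C1qa, 0.24 and 0.18 for C1qb, 0.22 and 0.15 for C1qc and 0.20 and 0.23 for Tmem119.

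**Figure D2:**
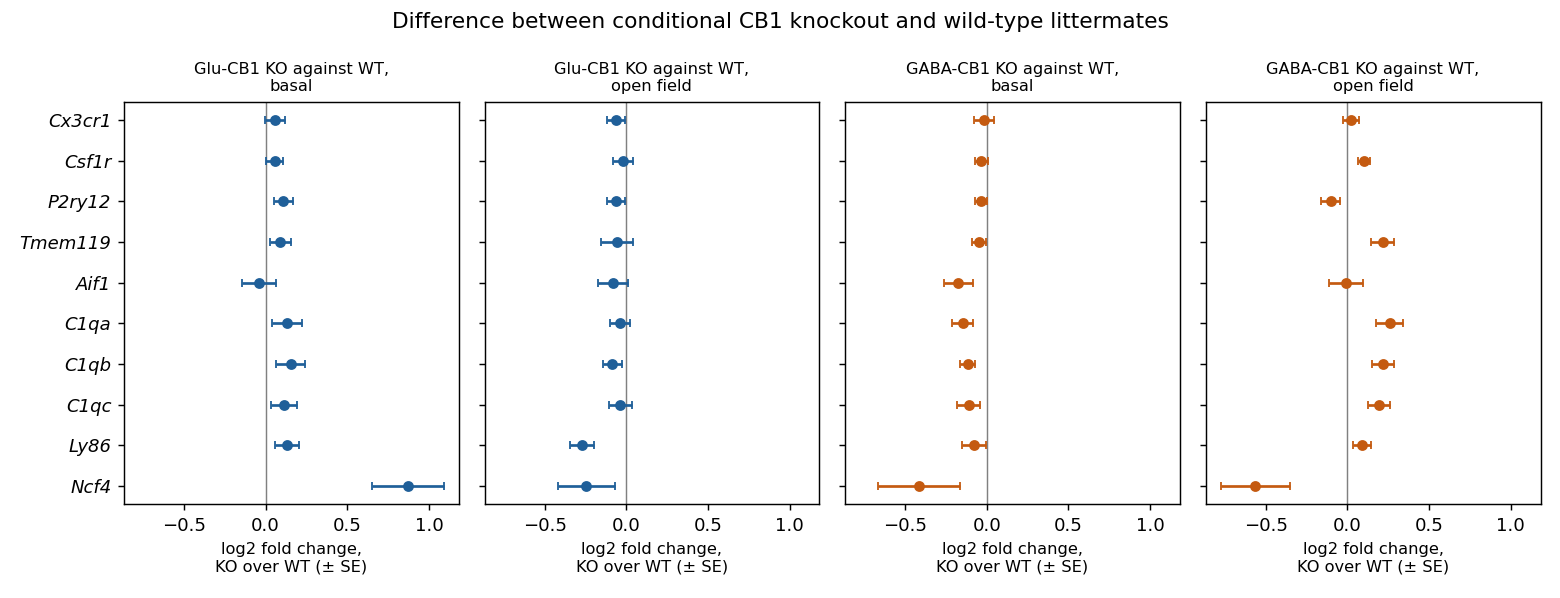
Log2 fold change of each microglia gene between conditional CB1-KO mice and CB1-WT littermates, by line and state. Points are edgeR estimates and bars their SE, and none of the 40 values was a DEG. The C1q genes and Tmem119 lie right of 0 after open field exposure in the GABA-CB1 line, with 0.26 for C1qa, and left of 0 in its basal state, with -0.15 for C1qa.

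Whether open field exposure itself altered the members was tested over both genotypes of a line. In the Glu-CB1 line 0 of 10 members were DEGs by edgeR, where 1.3% of all genes were, with 2 at an unadjusted p under 0.05 by edgeR, beside 12.8% of all genes, and 1 by DESeq2, which called 0. The smallest p was that of Ly86, with a log2 fold change of 0.12 ± 0.05 (SE) and an adjusted p of 0.297 by edgeR. The 5 basal Glu-CB1-WT mice had 9.34, 8.86, 8.12, 8.79 and 7.91 CPM of Ly86. The 5 Glu-CB1-WT mice after open field exposure had 9.53 to 12.5 CPM. Glu-CB1-KO mice had 8.45 to 10.6 CPM in the basal state and 8.12 to 10.3 CPM after exposure. The share of all genes whose WT groups separate between the states was not computed. In the GABA-CB1 line 0 of 10 members were DEGs by edgeR, where 1.03% of all genes were, with 3 at an unadjusted p under 0.05 by edgeR, again beside 12.8% of all genes, and 3 by DESeq2, which called 0. Tmem119 had a log2 fold change of 0.13 ± 0.04 (SE) with an adjusted p of 0.160 by edgeR. P2ry12 had one of -0.10 ± 0.04 (SE) with an adjusted p of 0.199 by edgeR. Its levels were 46.7 to 51.8 CPM in basal WT mice and 44.9 to 51.3 CPM in basal KO mice, and 42.7 to 50.4 CPM in WT mice and 40.1 to 48.4 CPM in KO mice after exposure, so all 4 groups overlapped. The median over the members was 0.03 for exposure in Glu-CB1 mice and -0.04 in GABA-CB1 mice.

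Averaged over both states, 0 of 10 members were DEGs between KO and WT mice of the Glu-CB1 line by edgeR, where 0.241% of all genes were. For the GABA-CB1 line it was also 0 of 10, where 0.449% were. At an unadjusted p under 0.05 there was 1 member in each line by edgeR, beside 7.16% of all genes for the Glu-CB1 and 8.83% for the GABA-CB1 line, and DESeq2 had 0 and 1 and called 0 in both. In both lines that member was Ncf4, with a log2 fold change of 0.31 ± 0.13 (SE, adjusted p = 0.640 by edgeR) in the Glu-CB1 line and -0.49 ± 0.17 (SE, adjusted p = 0.302 by edgeR) in the GABA-CB1 line. The other 9 members had averaged log2 fold changes between -0.09 and 0.08 in both lines.

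The interaction tests whether the difference between KO and WT changed with the state. In the Glu-CB1 line no member was called by edgeR, as was no gene of the whole table (0% of 15355), with 4 members at an unadjusted p under 0.05 by edgeR, beside 2.47% of all genes, and 4 by DESeq2, which called 0. All 10 interaction values were below 0, with a median of -0.16. Ncf4 had -1.11 ± 0.27 (SE) and Ly86 had -0.40 ± 0.11 (SE) on the log2 scale, both with an adjusted p of 1.00 by edgeR. The mean Ly86 level was 8.61 CPM in WT and 9.43 CPM in KO mice in the basal state, and 10.8 and 8.94 CPM after exposure.

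In the GABA-CB1 line no member was called either, again with 0% of 15374 genes called by edgeR, and 5 members had an unadjusted p under 0.05 by edgeR, beside 14.6% of all genes, and 5 by DESeq2, which called 0. Here 8 of 10 values were above 0, with a median of 0.17. The interaction was 0.41 ± 0.11 (SE) for C1qa, 0.34 ± 0.08 for C1qb, 0.30 ± 0.10 for C1qc and 0.26 ± 0.08 for Tmem119 on the log2 scale, with adjusted p-values of 0.205, 0.198, 0.223 and 0.211 by edgeR. For C1qa the WT mice had a lowest, median and highest value of 31.4, 35.6 and 38.6 CPM in the basal state, against the 27.2 to 34.6 CPM after exposure given above, and the 6 basal KO mice had 28.6, 31.2 and 36.6 CPM. For C1qc the lowest, median and highest values were 22.8, 26.02 and 28.8 CPM in basal WT mice, and the basal KO mice had a lowest value of 20.97 and a median of 24.3 CPM and stayed below the highest WT mouse. After exposure they were 19.5, 23.5 and 25.3 CPM in WT mice, and the 5 KO mice had 30.6, 25.5, 25.7, 25.6 and 24.4 CPM. The basal Tmem119 levels were 17.2 to 19.8 CPM in WT and 17.6 to 18.9 CPM in KO mice. With the first principal component of the within-group variation of the other genes as a covariate, chosen after seeing the data, C1qa, C1qb and Tmem119 were called, with adjusted p-values of 0.0273, 0.0217 and 0.0470 by edgeR, and so were 569 of all genes. The 10 choroid plexus genes had interaction values with a median of 2.87, of which 10 had an unadjusted p under 0.05. Without the libraries of this line that were among the 4 of highest Ttr, the interaction was 0.39 for C1qa, 0.30 for C1qb and 0.24 for Tmem119.

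Whether the effect of the deletion differed between the lines was tested by subtracting the GABA-CB1 difference from the Glu-CB1 difference. In the basal state 0 of 10 members were called by edgeR, where 0.279% of all genes were, with 3 at an unadjusted p under 0.05 by edgeR, beside 8.56% of all genes, and 3 by DESeq2, which called 0. All 10 values were above 0, with a median of 0.18. Ncf4 had the smallest p, with 1.29 ± 0.34 (SE) and an adjusted p of 0.156 by edgeR. Its lowest, median and highest levels were 0.374, 0.786 and 0.910 CPM in the basal GABA-CB1-WT mice and 0.291, 0.571 and 0.815 CPM in the basal GABA-CB1-KO mice, against the lower WT and higher KO levels of the Glu-CB1 line given above.

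After open field exposure 0 of 10 members were called by edgeR, where 0.568% of all genes were, with 5 at an unadjusted p under 0.05 by edgeR, beside 10.8% of all genes, and 5 by DESeq2. Here 8 of 10 values were below 0, with a median of -0.18. Ly86 came nearest to the threshold, with a difference between the lines of -0.36 ± 0.09 (SE) on the log2 scale and an adjusted p of 0.0718 by edgeR. DESeq2 called it, with an adjusted p of 0.0331. It was also called by edgeR with the first principal component as a covariate (adjusted p = 0.0451), without Glu-CB1-WT open field replicate 2 (0.0360) and without Glu-CB1-KO open field replicate 2 (0.0358). Over the other alternatives and the other libraries left out in turn it was not. The Ly86 levels behind it were the Glu-CB1 values given above and, in the GABA-CB1 line after exposure, 8.50, 8.85 and 9.88 CPM as the lowest, median and highest of the WT mice and 9.36, 9.90, 9.33, 9.19 and 10.1 CPM in the KO mice. C1qb and C1qa had differences of -0.30 ± 0.09 (SE, adjusted p = 0.137 by edgeR) and -0.30 ± 0.11 (SE, adjusted p = 0.267 by edgeR).

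The 23 CB1-WT mice of the lines were compared to see whether the lines differed without a deletion. No member was called by edgeR, and 0% of 15350 genes were, with 1 member at an unadjusted p under 0.05 by edgeR, beside 3.89% of all genes, and 1 by DESeq2, which called 0. This was Ncf4, with a log2 fold change of 0.59 ± 0.17 (SE) of the GABA-CB1 line over the Glu-CB1 line and an adjusted p of 0.999 by edgeR. The other 9 members had values between -0.06 and 0.02. Over all 130 tests of members, 0 were called by edgeR and 35 (26.9%) had an unadjusted p under 0.05, beside 8.76% of the tests of all genes, and apart from Ncf4 the largest log2 value was 0.41 in size. These comparisons share libraries, so their values are not independent of each other. The C1q genes also moved together, and the members were chosen with earlier results of these data known. The share of 26.9% is therefore a description and not a test of the members as a set. Median log2 fold changes over all genes tested lay between -0.00441 and 0.00509 in the 13 comparisons.

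Apart from Ncf4, the least abundant, for which this cannot be said, the members varied more between mice of a group than read counting alone would give. The SD of the log2 level within groups was 0.10 for Cx3cr1, where counting gave 0.04, and 0.15 for C1qa, where counting gave 0.05. For Aif1 the values were 0.16 and 0.13, and for Ncf4 they were 0.34 and 0.36. The log2 level held a prior count of 2, which damps low counts, and the counting value did not. For Ncf4 these values are therefore not on the same scale and cannot be ranked. Counting error covers the reads only, since amplified reads without molecular identifiers are not independent molecules.

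**Figure D3:**
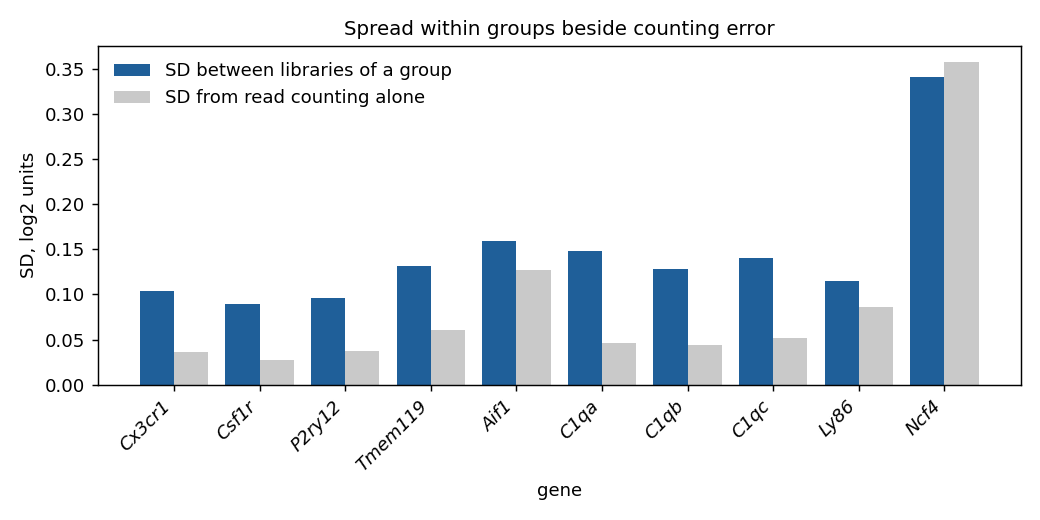
SD of the log2 level of each microglia gene between libraries of the same group (blue bars, pooled over the 8 groups) beside the SD that read counting alone would give (grey bars), in log2 units. The blue bar is the taller for 9 genes, with 0.13 against 0.04 for C1qb, and the grey bar is the taller for Ncf4, with 0.36 against 0.34. Blue bars hold a prior count of 2 and grey bars do not, so the bars of Ncf4 cannot be ranked.

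Within groups, the C1q genes formed the closest set. After each gene's group mean was subtracted from its log2 CPM, Pearson's r over the 48 libraries was 0.86 for each of the 3 pairs of C1q genes. Libraries share preparation and depth, and these correlations are descriptions without a test. The ratio of C1qa to C1qb, both per kb, was 0.910 ± 0.0503 (SD, n = 48) and ranged from 0.818 to 1.02, and that of C1qc to C1qb was 0.714 ± 0.0358 (SD, n = 48). Over the 45 pairs of members the median r was 0.25, and 10 pairs were over 0.5. Csf1r had r of 0.64 with C1qc, 0.61 with C1qb and 0.46 with C1qa. Cx3cr1 and P2ry12 had an r of 0.52 with each other, while P2ry12 had -0.20 with Tmem119 and -0.14 with C1qa. The first principal component of the other genes went with this division, with r of -0.50 for Cx3cr1 and -0.39 for P2ry12 but 0.49 for Csf1r and 0.48 for C1qc. Its part in the correlations was not tested. Ncf4 had an r of 0.16 with the mean of the other members.

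**Figure D4:**
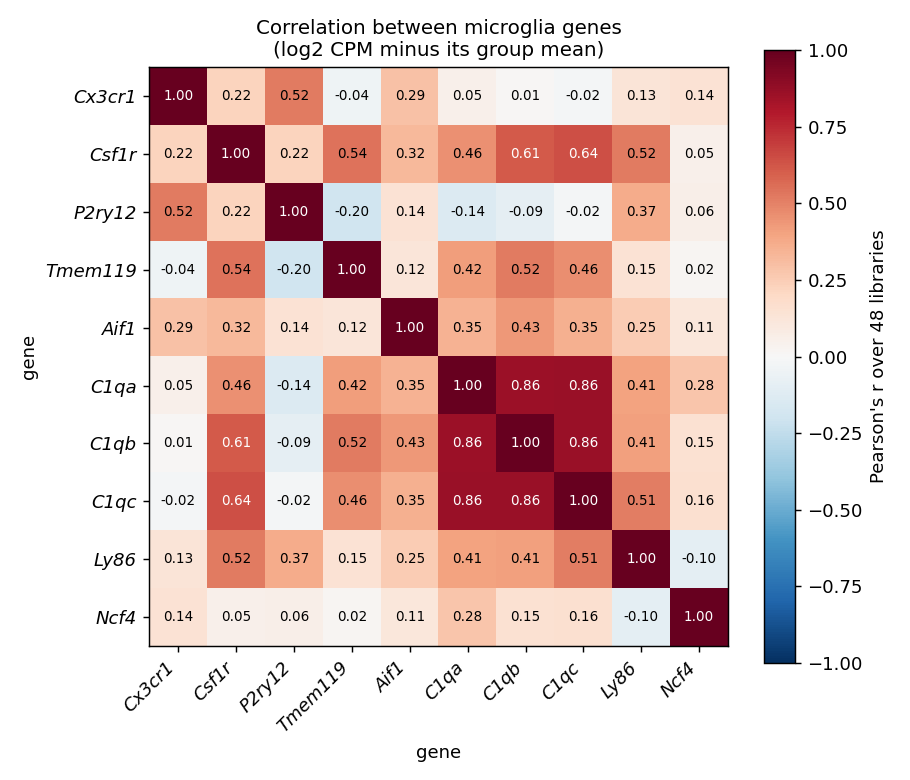
Pearson's r between microglia genes over the 48 libraries, computed on log2 CPM minus the group mean, with red for positive and blue for negative values. The C1q genes form a block of 0.86, and P2ry12 has the lowest value, -0.20 with Tmem119.

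Among the genes whose pattern over the 48 libraries was most like the mean of the members were Psd (r = 0.73), Ncdn (0.72), Unc93b1 (0.71), Olfml3 (0.66), B4galt2 (0.66), Rps19 (0.66), Tyrobp (0.65), Fcer1g (0.65) and Dcakd (0.65), out of 13698 genes with a mean of at least 1 CPM. Of these, Unc93b1, Olfml3, Tyrobp and Fcer1g are on the list of 30 other microglia genes, Psd and Ncdn are known as neuronal genes, and Rps19 encodes a ribosomal protein. The 30 listed microglia genes had a median r of 0.31 with the members' mean, from -0.06 for Sall1, a transcription factor of microglia, to the 0.71 of Unc93b1. The median over all 13698 genes was 0.00592, and the 99th percentile was 0.51. The summed profile of the 30 genes had an r of 0.79 with the members. The r was 0.57 for NADPH oxidase, 0.51 for reactive microglia, 0.29 for the complement list described below and 0.13 for Toll-like receptor genes. It was 0.24 for perivascular macrophage (on 2 genes), 0.35 for astrocyte, 0.21 for dentate granule and 0.07 for choroid plexus genes. Oligodendrocyte genes had 0.05, neuronal genes -0.01 and endothelial and mural genes -0.26. The log2 of the total count per library had an r of 0.49 with the members, and its part was not tested.

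Over the 13 comparisons and all genes, 0.342% of tests were calls by edgeR and 8.76% had an unadjusted p under 0.05, and the counts of the lists stand beside these shares. Of the 30 microglia genes, 1 call was made by edgeR in 390 tests over the 13 comparisons (49 at an unadjusted p under 0.05) and 4 by DESeq2. The call was P2ry13, a nucleotide receptor beside P2ry12, which fell with open field exposure in the Glu-CB1 line by 0.22 ± 0.04 (SE) on the log2 scale (adjusted p = 0.0125 by edgeR). Its mean went from 14.9 ± 1.35 to 13.9 ± 0.627 CPM (SD, n = 5) in WT mice and from 16.2 ± 1.11 to 12.8 ± 0.951 CPM (SD, n = 7) in KO mice. DESeq2 called P2ry13 in the GABA-CB1 line too, with a log2 fold change of -0.18 and an adjusted p of 0.0306, and P2ry12 itself was not called in either line. DESeq2 also called Itgb5 in GABA-CB1-KO after open field exposure (0.20, adjusted p = 0.0263) and Tyrobp, the adaptor of Trem2, in the difference between lines in the basal state (0.43, adjusted p = 0.0103).

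The ligands of the microglial receptors, among them Cx3cl1 at 621 CPM, Csf1 at 26.2 CPM and Il34 at 49.4 CPM on average, had 0 calls by edgeR in 91 tests, with 10 at an unadjusted p under 0.05, and 0 by DESeq2. The list of other complement genes also held the C1q-like genes C1ql1, C1ql2 and C1ql3, and Sez6, Srpx2, Csmd1, Csmd2 and Csmd3. Its most abundant genes were Sez6 at 297 CPM, C1ql3 at 155 CPM and Csmd1 at 107 CPM. This list had 0 calls by edgeR in 299 tests, with 22 at an unadjusted p under 0.05, and 1 by DESeq2. That was the complement inhibitor Cd59a in basal GABA-CB1-KO (log2 fold change -0.52 and adjusted p = 0.00844). C3, the central complement component, had a mean of 1.119 CPM, whereas C4b had 34.9 CPM. Other subunits and partners of the NADPH oxidase of Ncf4 had 0 calls by edgeR in 91 tests, with 5 at an unadjusted p under 0.05, and 0 by DESeq2, and its catalytic subunit Cybb had a mean of 0.478 CPM. Among Toll-like receptors and the partners of Ly86, both tools made 1 call in 104 tests, with 5 at an unadjusted p under 0.05. It was Cd180, the receptor that MD-1 binds, which fell with open field exposure in the GABA-CB1 line by 0.41 ± 0.10 (SE) on the log2 scale (adjusted p = 0.0444 by edgeR). Its mean went from 3.37 ± 0.317 to 2.36 ± 0.345 CPM in WT mice (SD, n = 6 and 7) and from 2.85 ± 0.734 to 2.28 ± 0.219 CPM in KO mice (SD, n = 6 and 5). The Cd180 call was lost in 18 of 24 fits that left out a library and in 3 of 9 alternatives, with adjusted p-values up to 0.142, while the log2 fold change stayed between -0.48 and -0.37.

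Genes of reactive microglia had 3 calls by edgeR in 232 tests (35 at an unadjusted p under 0.05) and 3 by DESeq2, all of Lpl. Lpl encodes lipoprotein lipase, which hippocampal neurons also express, and its mean of 97.1 CPM compares with 5.82 CPM for the microglial lysosomal gene Cd68. Lpl had a mean of 105 ± 8.09 CPM (SD, n = 5) in Glu-CB1-WT and 80.9 ± 6.22 CPM (SD, n = 7) in Glu-CB1-KO after open field exposure, with every KO mouse (73.8 to 90.4 CPM) below every WT mouse (96.6 to 118 CPM). It fell by 0.37 ± 0.06 (SE) on the log2 scale (adjusted p = 0.0124 by edgeR), by 0.32 ± 0.05 averaged over states (adjusted p = 0.00420 by edgeR) and by 0.42 ± 0.09 relative to the GABA-CB1 line after exposure (adjusted p = 0.0362 by edgeR). The last of these Lpl calls was lost in 10 of 24 fits that left out a library and in 3 of 9 alternatives, with adjusted p-values up to 0.166, and the first was lost with the replicate number as a block (adjusted p = 0.225 by edgeR), whereas the averaged one held in all 9 alternatives and all 24 fits without a library. Of the 25 genes on this list, 5 had a mean below 0.1 CPM, namely Ccl2, Tnf at 0.0511 CPM, Il1b at 0.0732 CPM, Ccl4 and Cst7 at 0.0965 CPM, while Clec7a had 0.260 CPM.

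Markers of other cell types were followed in the same way. By edgeR there were 0 calls for perivascular macrophage (85 tests, 6 at an unadjusted p under 0.05), blood (13 tests, 2), endothelial and mural (156 tests, 7), oligodendrocyte (130 tests, 10), choroid plexus (130 tests, 40) and dentate granule cell genes (104 tests, 8). DESeq2 called 0, 0, 1, 1, 1 and 1 of these. Among astrocyte genes edgeR called Sox9, which fell with open field exposure in the Glu-CB1 line by 0.21 ± 0.04 (SE, adjusted p = 0.0157), out of 130 tests with 11 at an unadjusted p under 0.05, and DESeq2 made 2 calls. Among neuronal genes edgeR called Gad1, the GABA-synthesizing enzyme, in the difference between the lines after open field exposure (0.25 ± 0.05 SE, adjusted p = 0.00994), out of 130 tests with 17 at an unadjusted p under 0.05, and DESeq2 made 4 calls.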

How the data were processed

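Hippocampal CA RNA was measured by RNA-sequencing in 48 mice. Per the study's methods, cDNA was made and amplified with NuGEN Ovation kits, and reads were trimmed with bbduk, mapped by STAR 2.6.0a to mm10 and counted per gene by featureCounts 1.6.2 with a strand setting. Whether the kit marks strand was not given in the sources used here. The values the authors deposited are raw counts per gene. No exonic base of a member is shared with another listed gene (0 bases in each overlapping pair).

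Groups come from the labels. Genes were filtered by filterByExpr, normalized by TMM and tested with edgeR 4.0.16 (quasi-likelihood, R 4.3.3) on the 12, 24 or 23 libraries of a comparison, with Benjamini-Hochberg adjustment over all genes tested and a threshold of 0.05. SE were derived from the F statistic. Log2 CPM for correlations used a prior count of 2. All 10 members passed the filter in each comparison. The tests were tested on simulated data. Alternatives were DESeq2 1.42.0, RLE size factors, no filter, 10 counts in every library, all 48 libraries in 1 fit, the range of animal numbers as covariate, the replicate number as block and each library left out. A principal component as covariate and leaving out the 4 libraries of highest Ttr were added after seeing the data.

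The members and the lists (30 other microglia genes, receptor ligands, complement, NADPH oxidase, Toll-like receptors, reactive microglia, perivascular macrophage, blood, endothelial and mural, astrocyte, oligodendrocyte, choroid plexus, dentate granule, neuron) were chosen with earlier results of these data known. Named in a comparison are the members called, otherwise the member of smallest p, those with an unadjusted p under 0.01, list genes called, and the 10 genes most alike, of which 1 is not reported here. Members outside this rule, such as Csf1r, were named after their values were seen. Each library is 1 mouse, and no pair of libraries in a group was close to a duplicate (lowest chi-square per degree of freedom 2.93).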

Additional observations from a re-analysis of the deposited data

Results flagged for a closer look

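In 6 of 96 sets of libraries (the 10 genes, their sum and the sum of the C1q genes in each of the 8 groups) the highest library stood far from the others by Dixon's test, and chance flags about 1 in 20 such groups. In Glu-CB1-WT after open field exposure, replicate 5 had 117.1 CPM of Csf1r where the next mouse had 93.8 CPM, and 387.5 CPM for the 10 genes summed where the next had 331 CPM. In basal GABA-CB1-WT, replicate 5 had 106.3 CPM of Csf1r, where the next had 95.9 CPM. In GABA-CB1-WT after open field exposure, replicate 5 had 34.56 CPM of C1qa, where the next had 29.7 CPM. In GABA-CB1-KO after open field exposure, replicate 1 had 30.57 CPM of C1qc, where the next had 25.7 CPM. In Glu-CB1-KO after open field exposure, replicate 1 had 0.8214 CPM of Ncf4, where the next had 0.583 CPM.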

How the results depend on the processing

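No member was called by edgeR in any of the 13 comparisons, and the count of members called stayed at 0 in all but 3 of 117 alternative fits and in all but 2 of 263 fits without a library. In the interaction of the GABA-CB1 line it was 3 with the first principal component as a covariate (C1qa, C1qb and Tmem119). In the difference between the lines after open field exposure it was 1 (Ly86) with DESeq2 and 1 with the principal component, and between 0 and 1 when each library was left out, with 1 without Glu-CB1-WT or Glu-CB1-KO open field replicate 2. None of the 22 named log2 values changed sign under any alternative in which the gene was tested. Ncf4, with as few as 5 reads in a library, did not pass the filter of 10 counts in every library where it was named. Replicate numbers did not pair the mice, since the deviations of same-numbered WT and KO libraries correlated between -0.48 and 0.41 and over 0.1 in 5 of 21 pairs. With the replicate block 0 members were called in every comparison. For all genes, the block moved the count called from 37 to 8 in basal GABA-CB1-KO, from 3 to 1 in GABA-CB1-KO and from 41 to 3 in Glu-CB1-KO after exposure, from 69 to 31 and from 37 to 77 for the deletion averaged over states in the GABA-CB1 and the Glu-CB1 line, from 159 to 34 for exposure in the GABA-CB1 line and from 87 to 54 for the difference between lines after exposure. DESeq2 called 12, 123, 110 and 142 genes against 3, 41, 37 and 3 by edgeR in Glu-CB1-KO basal and open field and GABA-CB1-KO basal and open field, 349 against 200 and 274 against 159 for exposure in the Glu-CB1 and GABA-CB1 lines, 101 against 37 and 137 against 69 for the averaged deletion, 27 against 0 for the interaction in the GABA-CB1 line, and 79 against 43 and 199 against 87 for the difference between lines in the basal state and after exposure. The principal component gave 94, 111 and 32 in place of 41, 37 and 3 (Glu-CB1-KO open field, GABA-CB1-KO basal and open field), 423 and 267 for exposure, 77 and 109 for the averaged deletion, 569 for the interaction in the GABA-CB1 line and 187 for the difference between lines after exposure. One fit of all 48 libraries gave 106 in place of 3 in GABA-CB1-KO after exposure, 7 in place of 3 in basal Glu-CB1-KO, 58 in place of 37 for the averaged deletion and 374 in place of 200 for exposure in the Glu-CB1 line, and 53 in place of 87 for the difference between lines after exposure. The range of animal numbers gave 24 in place of 37 in basal GABA-CB1-KO and 16 in place of 41 in Glu-CB1-KO after exposure. Each comparison was also fitted without those of the 4 libraries of highest Ttr that it held. The counts were then 91 and 26 for exposure in the Glu-CB1 and GABA-CB1 lines, 24 in Glu-CB1-KO after exposure and 53 for the difference between lines after exposure. The cause of these shifts was not tested. The few reads of Ncf4 limit what can be said of it.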
